A study of Mus musculus with 12 samples.

Results

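A set of 40 genes that mark monocytes, macrophages and dendritic cells was followed in RNA-seq counts of LK cells, the lineage-negative, cKit-positive fraction of mouse bone marrow that holds stem cells and early progenitors. The 40 genes were chosen by name from the rows of the count matrix, 40 of 55291 genes in all, and all 40 of them were among the 15825 genes with enough counts to be tested. Libraries came from 12 mice on the C57BL/6 strain at 12 months of age, 1 library per mouse and 3 mice in each of 4 genotypes: WT, Kdm6bΔ/+, Asxl1Y588XTg and Asxl1Y588XTg Kdm6bΔ/+. Kdm6bΔ/+ cells had lost 1 Kdm6b allele to Cre recombinase from the Mx1Cre transgene, which interferon switches on once the mice have been given pI:pC, an RNA that mimics viral RNA. Asxl1Y588XTg cells carried a transgene for a truncated form of the chromatin protein ASXL1, whose promoter is not given in the sources used here, and mice of this genotype were in a preleukemic state at this age. The Asxl1Y588XTg Kdm6bΔ/+ mice combined both alleles. For the sequenced WT and Asxl1Y588XTg mice, whether they also carried Mx1Cre or received pI:pC is not given in the sources used here, although the WT donors of the study's marrow transplants carried Mx1Cre. The reads counted on genes numbered from 14451522 to 23482563 per library.

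Monocytes and dendritic cells arise in the marrow from myeloid progenitors under the transcription factor PU.1 and circulate to tissues. Resident macrophages of the marrow clear dying cells and worn red blood cells, recycle their iron, and surround developing erythroblasts. Most of these genes encode receptors, lysosomal proteins or secreted proteins of the mature cells, but some, such as Lyz2, Ly6c2 and Csf2ra, are already transcribed in myeloid progenitors. In bulk RNA, more cells of a type and more RNA per cell cannot be told apart.

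The labels were checked first. Kit, the gene of the receptor used for sorting, had normalized counts (counts scaled to a common library size) from 5746 to 7739.9 in all libraries, and the progenitor gene Cd34 had from 2064 to 2746. S100a9, a gene of neutrophils, had the highest level of the 15 genes of a neutrophil list, a mean of 67072 TPM (counts divided by exon length and scaled to the same sum in every library). Kdm6b had normalized counts of 2114, 2353 and 1851 in WT and of 1605, 1531 and 1341 in Kdm6bΔ/+ cells. Kdm6b had 2276, 2297 and 2191 in Asxl1Y588XTg and 1666, 1890.2 and 1951 in Asxl1Y588XTg Kdm6bΔ/+ cells, so the libraries with the deletion did not overlap their comparison group and were lower. Xist and the Y-linked gene Ddx3y showed Y-linked transcripts in 0 of 3 WT, 2 of 3 Kdm6bΔ/+, 1 of 3 Asxl1Y588XTg and 3 of 3 Asxl1Y588XTg Kdm6bΔ/+ libraries. Genotype and sex-linked transcripts therefore cannot be told apart between Asxl1Y588XTg Kdm6bΔ/+ and WT.

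A library that stood apart has to be described before the comparisons. Asxl1Y588XTg replicate 1 had the highest normalized count of all 12 libraries for 27 of the 40 genes (67.5%), against 13% of all genes tested. It lay more than 2-fold above the mean of the other Asxl1Y588XTg libraries for 18 of the 40 (45%), against 3.91% of all genes tested. For the genes described in full, fold changes that involve Asxl1Y588XTg are therefore also given without it, as are the counts of calls.

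PU.1 recognizes purine-rich DNA, and the promoters of these genes were searched for its core. Of the 40 genes, 30 had a promoter entry in the RefSeq table for GRCm38.p6, and the 250 bases before the start were searched on both strands. The letters AGGAAGT were present in 11 of the 30 (36.7%), namely C1qb, C1qc, F13a1, Fcgr1, Fcgr4, Flt1, Ly6c2, Lyz1, Lyz2, Mrc1 and Ms4a6c, and in 8.8% of 27025 genes. A C/EBP core, TTGCNNAA, searched in the same way, was present in 5 (16.7%), against 10.8% of genes. These matches are descriptions of letters, and binding was not measured. The sequences that follow, with the PU.1 core in capitals as it reads on the reverse strand, are those of the neighboring lysozyme genes, close copies with very different levels, and of C1q genes, which varied widely between libraries. All are on the minus strand and are written 5′ to 3′. The windows lie at chr10:117282322-117282522 for Lyz2, chr10:117292918-117293118 for Lyz1, chr4:136886201-136886450 for C1qb and chr4:136893066-136893164 for C1qc. Those of the lysozyme genes (201 bases each) end 49 bases before the RefSeq start and that of C1qc (99 bases) ends 151 bases before it, because bases annotated as exon in Lyz2 and C1qc are left out and Lyz1 is trimmed to match Lyz2. That of C1qb (250 bases) reaches the start.
Lyz2: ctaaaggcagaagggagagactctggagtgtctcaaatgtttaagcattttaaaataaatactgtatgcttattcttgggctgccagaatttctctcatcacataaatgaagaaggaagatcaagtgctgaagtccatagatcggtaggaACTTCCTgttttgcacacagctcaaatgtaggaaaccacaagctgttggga
Lyz1: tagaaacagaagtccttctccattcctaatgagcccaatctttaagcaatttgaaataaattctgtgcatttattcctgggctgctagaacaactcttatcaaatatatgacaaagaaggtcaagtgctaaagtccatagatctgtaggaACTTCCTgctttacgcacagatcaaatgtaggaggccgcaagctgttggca
C1qb: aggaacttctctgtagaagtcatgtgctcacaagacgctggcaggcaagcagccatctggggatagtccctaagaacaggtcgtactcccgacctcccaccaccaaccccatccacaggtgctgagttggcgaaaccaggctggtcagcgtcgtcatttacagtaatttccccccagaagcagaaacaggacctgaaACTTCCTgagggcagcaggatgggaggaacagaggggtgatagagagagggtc
C1qc: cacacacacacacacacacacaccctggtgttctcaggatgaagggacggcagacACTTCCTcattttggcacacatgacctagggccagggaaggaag
The core began 100 bases before the RefSeq start in both lysozyme genes, 53 bases before it in C1qb and 195 bases before it in C1qc. Over the 199 aligned bases of the lysozyme windows, 151 (75.9%) were identical.

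Per unit of length, the 40 genes spanned from a mean of 7807 TPM for Lyz2, the lysozyme of myeloid cells and rank 11 of all genes, to 0.782 TPM for Batf3, a transcription factor of cross-presenting dendritic cells. After Lyz2 came Ly6c2, which encodes the Ly6C antigen of inflammatory monocytes, with a mean of 595 TPM, and Fcgr3, a low-affinity IgG receptor, with 266 TPM. Mpeg1, a pore-forming protein of phagocytes, had a mean level of 131 TPM, F13a1, the factor XIII A chain, 109 TPM, and Csf2ra, the GM-CSF receptor α chain, 98.5 TPM. The tissue macrophage genes were lower, with 64.5 TPM for the adhesion molecule Vcam1, 54.2 TPM for the iron exporter ferroportin (Slc40a1), 44.5 TPM for the heme-degrading enzyme Hmox1, 9.92 TPM for Cd5l and 9.28 TPM for the mannose receptor Mrc1. The C1q chains C1qa, C1qb and C1qc had mean levels of 31.2, 29.3 and 18 TPM. Most dendritic cell genes were near the bottom, with 4.05 TPM for Itgax, 1.5 TPM for Cd209a, 1.47 TPM for Xcr1 and 1.22 TPM for Siglech. Tcf4 had 4.87 TPM, which is likely too low, because its counts were divided by the 27382 bases of all its annotated exons together. By count it was the most abundant dendritic cell gene, with a mean normalized count of 1056. Batf3 had no count in WT replicate 1 and Cd209a had none in Kdm6bΔ/+ replicate 1, and all other counts of the 40 genes were above 0.

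**Figure D1:**
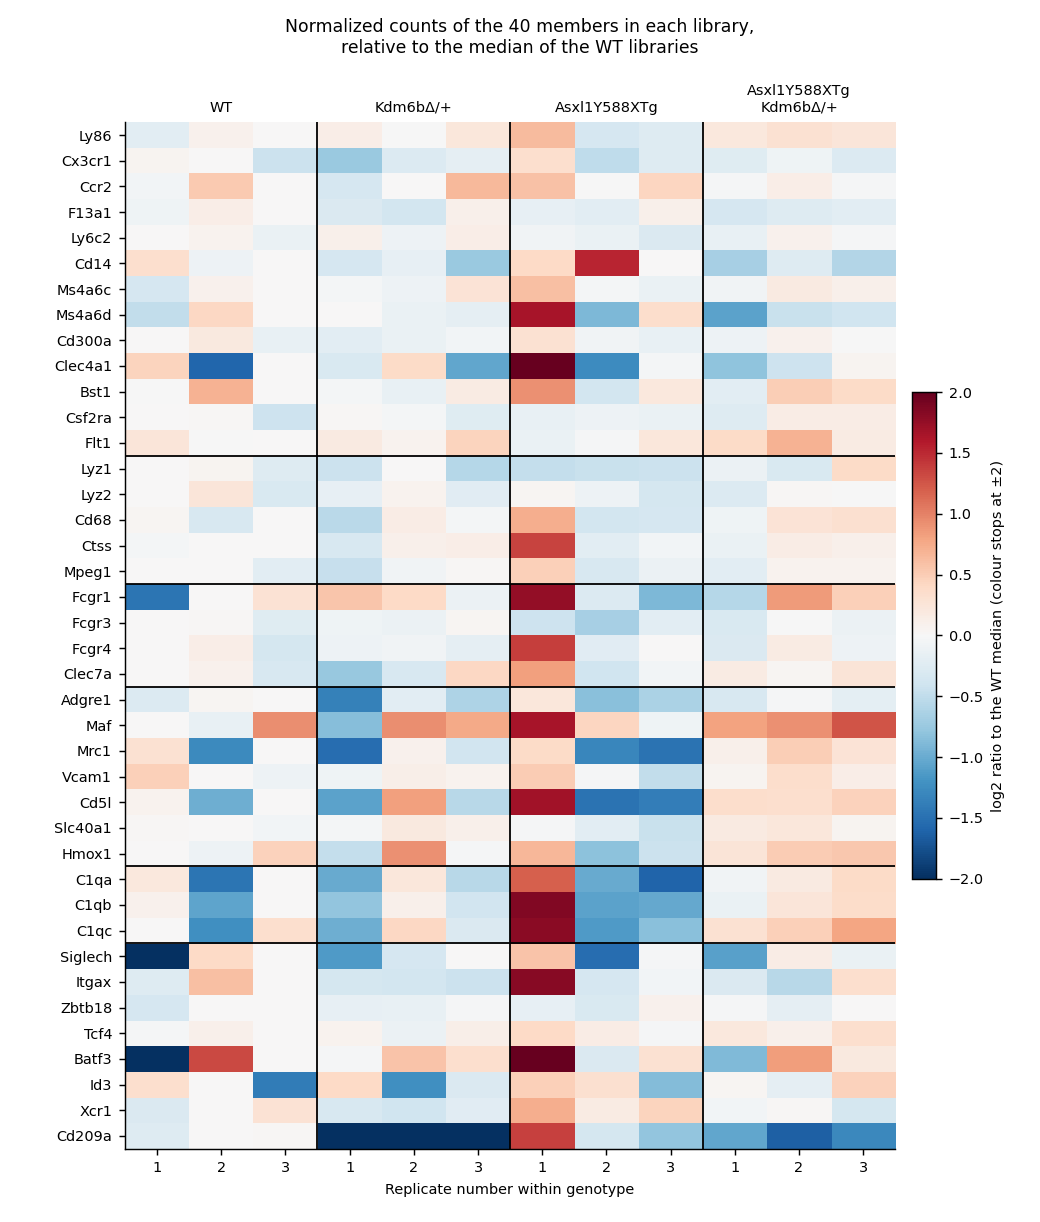
Heat map of the 40 genes (rows, by role) in the 12 libraries (columns, by genotype and replicate), colored by the log2 ratio of the normalized count, plus 1, to the median of the WT libraries. The column of Asxl1Y588XTg replicate 1 is the highest for 27 of the 40 genes.

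None of the 40 genes passed the test in any comparison of genotypes. The test for each pair was edgeR's quasi-likelihood test over all 15825 genes, and calls needed a fold change above 1.5 and a p-value, adjusted by the Benjamini-Hochberg method, under 0.05. Between Asxl1Y588XTg and WT cells, 0 of the 40 were called, against 1.61% of all genes tested, and 2 had an unadjusted p-value under 0.05, against 9.35%. DESeq2 called 0, against 2.99% of all genes, and gave 3 under that unadjusted level, against 9.02%. The fitted value was higher in Asxl1Y588XTg for 26 genes and lower for 14, with a median log2 fold change of 0.17 against −0.01 over all genes tested. In Asxl1Y588XTg Kdm6bΔ/+ against Asxl1Y588XTg cells, 0 were called, against 1.74% of all genes tested, and 5 had an unadjusted p-value under 0.05, against 15.4%. DESeq2 called 0, against 2.82%, and gave 7 under that level, against 13.6%. The median was −0.06 against −0.00, with 18 genes fitted higher and 22 lower. Both comparisons use the same Asxl1Y588XTg libraries, so their values are not independent. With 3 libraries on each side, the smallest p of an exact permutation test (two-sided) is 0.1, so none was run for single genes.

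Among the monocyte surface and secreted genes, Ly6c2 (chromosome 15, 75108158 to 75111970 of mm10) was the most abundant by count. Its normalized counts were 13307, 13925 and 12072 in WT, 14345, 12347 and 14566 in Kdm6bΔ/+, 12656, 12076 and 10913 in Asxl1Y588XTg, and 11968, 14052 and 13068 in Asxl1Y588XTg Kdm6bΔ/+ cells. The 4 genotypes overlapped. For Ly6c2 the log2 fold change was −0.16 (SE 0.09, adjusted p = 0.670 by edgeR) in Asxl1Y588XTg against WT and 0.13 (SE 0.09, adjusted p = 0.506 by edgeR) in Asxl1Y588XTg Kdm6bΔ/+ against Asxl1Y588XTg. Without Asxl1Y588XTg replicate 1 these were −0.20 and 0.18. Of the 50-base stretches of Ly6c2, 14.5% also occur in other genes, mainly its neighbor Ly6c1, so part of its count is uncertain.

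F13a1 (chromosome 13, 36867178 to 37050244) had normalized counts of 5941, 6936 and 6311 in WT, 5178, 4891 and 6781 in Kdm6bΔ/+, 5630.2, 5439 and 6749.9 in Asxl1Y588XTg, and 5026, 5259.8 and 5438 in Asxl1Y588XTg Kdm6bΔ/+ cells. Every Asxl1Y588XTg Kdm6bΔ/+ library lay below every WT and every Asxl1Y588XTg library, the latter by a narrow margin. Its log2 fold change was −0.31 (SE 0.08, adjusted p = 0.338 by edgeR) in Asxl1Y588XTg Kdm6bΔ/+ against WT and −0.18 (SE 0.09, adjusted p = 0.363 by edgeR) in Asxl1Y588XTg Kdm6bΔ/+ against Asxl1Y588XTg, and neither passed the test. The latter was −0.22 without Asxl1Y588XTg replicate 1.

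Cd14, which encodes the coreceptor for bacterial lipopolysaccharide, had normalized counts of 332, 244 and 262 in WT, 206, 232 and 155 in Kdm6bΔ/+, 346, 753 and 264 in Asxl1Y588XTg, and 164, 218 and 174 in Asxl1Y588XTg Kdm6bΔ/+ cells. All 6 libraries with the Kdm6b deletion lay below all 6 without it, a split that nearly coincides with Y-linked transcripts. The Asxl1Y588XTg group rested on replicate 2, the highest of all 12 libraries for Cd14. The log2 fold change was −0.51 (SE 0.20, unadjusted p = 0.0244, adjusted p = 0.9999 by edgeR) in Kdm6bΔ/+ against WT, −1.30 (SE 0.45, adjusted p = 0.276 by edgeR) in Asxl1Y588XTg Kdm6bΔ/+ against Asxl1Y588XTg, and −0.62 (SE 0.18, adjusted p = 0.413 by edgeR) in Asxl1Y588XTg Kdm6bΔ/+ against WT. Without Asxl1Y588XTg replicate 1 it was −1.46 (unadjusted p = 0.0569 by edgeR) in Asxl1Y588XTg Kdm6bΔ/+ against Asxl1Y588XTg. Replicate 2 weighs more in that fit, which holds fewer Asxl1Y588XTg libraries.

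The other monocyte genes showed no separated groups in Asxl1Y588XTg against WT or in Asxl1Y588XTg Kdm6bΔ/+ against Asxl1Y588XTg. Ccr2 and Cx3cr1, the chemokine receptors of inflammatory and patrolling monocytes, had normalized counts from 841 to 1666 and from 190.2 to 399. Csf2ra had from 1779 to 2629.9 and Cd300a, an inhibitory receptor, from 677 to 968. Ly86, a partner of the Toll-like receptor homolog RP105, had counts from 278 to 544, Bst1, a surface enzyme, from 178 to 433, and Flt1, a VEGF receptor also made by monocytes, from 141 to 250.3. Clec4a1, a C-type lectin, and Ms4a6d, a tetraspan membrane protein, were low and varied most, from 17.3 to 256 and from 14.2 to 98.8, with Asxl1Y588XTg replicate 1 at the top of both. Counts of Ms4a6c went from 400.0 to 763 and are uncertain, because 51.4% of its 50-base stretches are shared, mostly with an overlapping antisense gene.

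Lyz2 (chromosome 10, 117277331 to 117282321) had normalized counts of 86037, 102169 and 69826 in WT, 76738, 90794 and 73879.6 in Kdm6bΔ/+, 88066, 80293 and 67361 in Asxl1Y588XTg, and 71017, 87544 and 85215 in Asxl1Y588XTg Kdm6bΔ/+ cells. The genotypes overlapped, and Lyz2 made up from 0.397% to 0.574% of a library's counts. Its log2 fold change was −0.15 (SE 0.15, adjusted p = 0.862 by edgeR) in Asxl1Y588XTg against WT and 0.05 (SE 0.12, adjusted p = 0.897 by edgeR) in Asxl1Y588XTg Kdm6bΔ/+ against Asxl1Y588XTg. For Lyz2 these were −0.24 and 0.14 without Asxl1Y588XTg replicate 1.

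Lyz1 (chromosome 10, 117287797 to 117292868), the copy next to Lyz2 that is best known from the Paneth cells of the intestine, had normalized counts of 75.9, 79.1 and 63.6 in WT, 55.9, 76.4 and 50.7 in Kdm6bΔ/+, 54.5, 55.2 and 55.8 in Asxl1Y588XTg, and 70.1, 61.6 and 99.1 in Asxl1Y588XTg Kdm6bΔ/+ cells. All Asxl1Y588XTg libraries lay below all WT and all Asxl1Y588XTg Kdm6bΔ/+ libraries. For Lyz1 the log2 fold change was −0.42 (SE 0.26, adjusted p = 0.736 by edgeR) against WT and 0.47 (SE 0.24, adjusted p = 0.382 by edgeR) in Asxl1Y588XTg Kdm6bΔ/+ against Asxl1Y588XTg. Leaving out Asxl1Y588XTg replicate 1 gave −0.41 and 0.46. Of the 40 genes, 1, Lyz1, had Asxl1Y588XTg and WT libraries that did not overlap, against 15.4% of all genes tested. In TPM, Lyz2 was between 825 and 1552 times as abundant as Lyz1, while 16.1% of the 50-base stretches of Lyz1 and 15.4% of those of Lyz2 are shared, so Lyz1 counts could include reads of Lyz2.

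Among the remaining lysosomal genes, Ctss, the protease cathepsin S, had normalized counts from 426 to 589 in 11 libraries and 1358 in Asxl1Y588XTg replicate 1. Cd68, a lysosomal glycoprotein, had 584 in that library and from 241 to 442 elsewhere, and Mpeg1 had 6421 there and from 3376 to 4837 elsewhere.

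Fcgr3 (chromosome 1, 171051174 to 171064935) had normalized counts of 4089, 4178 and 3458 in WT, 3855, 3758 and 4211 in Kdm6bΔ/+, 3076, 2582 and 3546 in Asxl1Y588XTg, and 3296, 4072 and 3788 in Asxl1Y588XTg Kdm6bΔ/+ cells. The Asxl1Y588XTg counts were mostly lower, but replicate 3 overlapped the WT and Asxl1Y588XTg Kdm6bΔ/+ libraries. Of the 50-base stretches of Fcgr3, 9.58% also occur in other genes, mainly Fcgr2b, so part of its count is uncertain. In Asxl1Y588XTg against WT the log2 fold change was −0.37 (SE 0.12, unadjusted p = 0.0143, adjusted p = 0.283 by edgeR), and it was −0.37 (unadjusted p = 0.0309 by edgeR) without Asxl1Y588XTg replicate 1. Fcgr4, an activating IgG receptor, had normalized counts of 1069 in Asxl1Y588XTg replicate 1 and from 322 to 459 elsewhere. Fcgr1, the high-affinity IgG receptor, had 101 there and from 9.93 to 53.5 elsewhere, and Clec7a, the β-glucan receptor dectin-1, had 916 there and from 307 to 692 elsewhere. Fcgr3 was thus the member of this group that was not highest in that library.

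The C1q chains and several tissue macrophage genes varied widely within WT, Kdm6bΔ/+ and Asxl1Y588XTg and less in Asxl1Y588XTg Kdm6bΔ/+ cells. C1qc (chromosome 4, 136889804 to 136893065) had normalized counts of 231, 98.6 and 292 in WT, 117, 308 and 188 in Kdm6bΔ/+, 812, 104 and 129 in Asxl1Y588XTg, and 286, 322 and 398 in Asxl1Y588XTg Kdm6bΔ/+ cells. The value of Asxl1Y588XTg replicate 1 was above all others, and the remaining Asxl1Y588XTg libraries were among the lowest. C1qa and C1qb, next to it on chromosome 4, had 624 and 843 in that library and from 89.3 to 356 and from 110.4 to 303 elsewhere. The C1qc log2 fold change was 0.73 (SE 0.94, adjusted p = 0.908 by edgeR) in Asxl1Y588XTg against WT and −0.06 (SE 0.94, adjusted p = 0.983 by edgeR) in Asxl1Y588XTg Kdm6bΔ/+ against Asxl1Y588XTg. The former turned to −0.85 (SE 0.41, unadjusted p = 0.0703 by edgeR) without Asxl1Y588XTg replicate 1.

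Cd5l, a secreted scavenger protein of tissue macrophages (chromosome 3, 87357881 to 87371073), had normalized counts of 151, 72.6 and 144 in WT, 68.4, 255 and 97.3 in Kdm6bΔ/+, 462, 51.2 and 54.8 in Asxl1Y588XTg, and 184, 182 and 199 in Asxl1Y588XTg Kdm6bΔ/+ cells. Its Asxl1Y588XTg Kdm6bΔ/+ libraries lay above all WT libraries and within the range of the Asxl1Y588XTg libraries. Mrc1 had 658, 221 and 533 in WT, 185, 568 and 409 in Kdm6bΔ/+, 695, 215 and 192 in Asxl1Y588XTg, and 573, 751 and 647 in Asxl1Y588XTg Kdm6bΔ/+ cells. Its Asxl1Y588XTg Kdm6bΔ/+ libraries lay above all Kdm6bΔ/+ libraries. Hmox1 had 536, 499.6 and 736 in WT, 387, 1011 and 527 in Kdm6bΔ/+, 846, 304 and 397 in Asxl1Y588XTg, and 640.3, 765 and 782 in Asxl1Y588XTg Kdm6bΔ/+ cells, and its genotypes overlapped in each comparison.

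**Figure D2:**
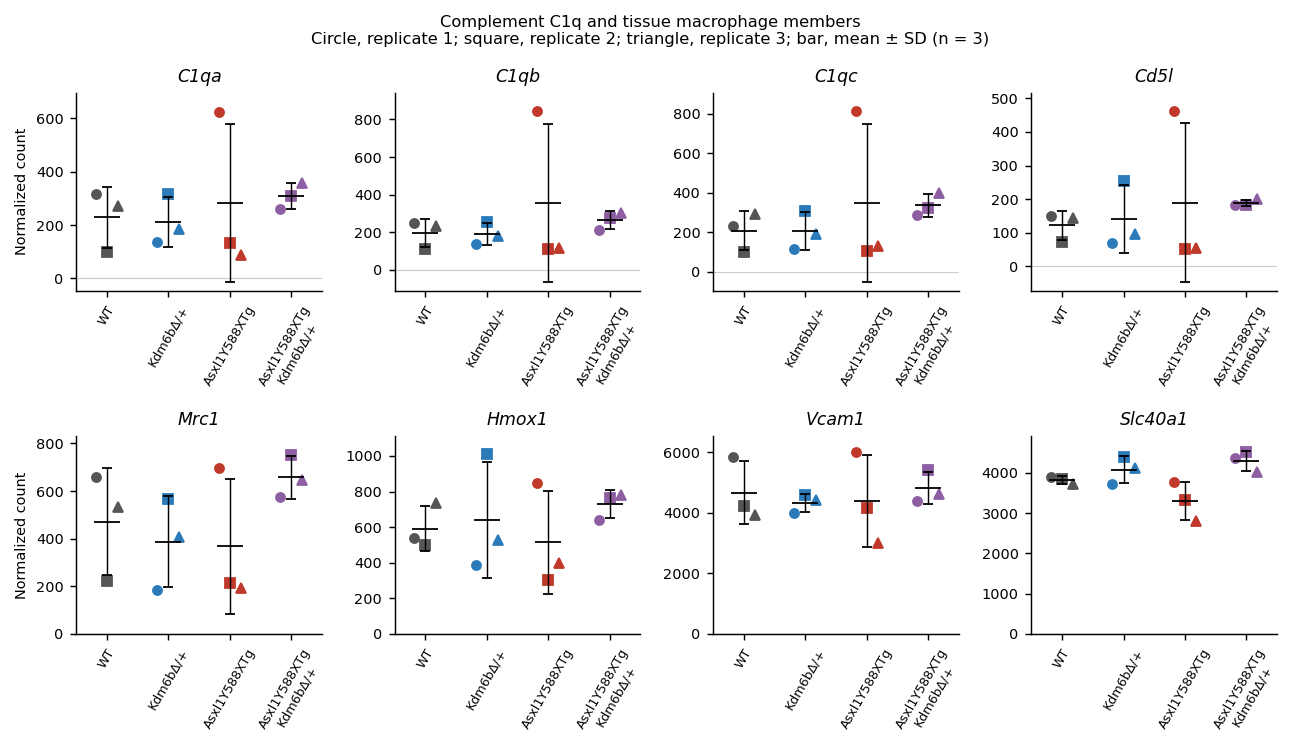
Normalized counts of 8 macrophage and C1q genes by library, with circles, squares and triangles for replicates 1, 2 and 3 and bars for the mean ± SD of the 3 mice of a genotype. The circle of Asxl1Y588XTg lies far above the other Asxl1Y588XTg points for the C1q genes, Cd5l and Mrc1, while the Asxl1Y588XTg Kdm6bΔ/+ points lie close together.

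Slc40a1 (chromosome 1, 45908068 to 45926523) had normalized counts of 3899, 3848 and 3719 in WT, 3727, 4406 and 4116 in Kdm6bΔ/+, 3767, 3327 and 2817 in Asxl1Y588XTg, and 4374, 4508 and 4016 in Asxl1Y588XTg Kdm6bΔ/+ cells. All Asxl1Y588XTg Kdm6bΔ/+ libraries lay above all Asxl1Y588XTg and all WT libraries. The log2 fold change was 0.38 (SE 0.10, unadjusted p = 0.00369, adjusted p = 0.0948 by edgeR) in Asxl1Y588XTg Kdm6bΔ/+ against Asxl1Y588XTg, which missed the threshold. DESeq2 gave an adjusted p of 0.00862, but the fold change was below 1.5. In Asxl1Y588XTg against WT the log2 fold change of Slc40a1 was −0.23 (SE 0.10, adjusted p = 0.530 by edgeR). When Asxl1Y588XTg replicate 1 was left out, it was 0.48 (adjusted p = 0.0267 by edgeR) in Asxl1Y588XTg Kdm6bΔ/+ against Asxl1Y588XTg, which passed the adjusted p-value but not the fold limit, and −0.33 (unadjusted p = 0.00863 by edgeR) in Asxl1Y588XTg against WT.

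Vcam1 (chromosome 3, 116109949 to 116129688), which marrow macrophages and stroma use to hold progenitors, had normalized counts of 5848, 4219 and 3918 in WT, 3979.7, 4584 and 4416 in Kdm6bΔ/+, 6015, 4161 and 3008 in Asxl1Y588XTg, and 4393, 5401 and 4628 in Asxl1Y588XTg Kdm6bΔ/+ cells. The genotypes overlapped, with log2 fold changes of −0.10 (SE 0.28, adjusted p = 0.955 by edgeR) in Asxl1Y588XTg against WT and 0.13 (SE 0.27, adjusted p = 0.878 by edgeR) in Asxl1Y588XTg Kdm6bΔ/+ against Asxl1Y588XTg. Without Asxl1Y588XTg replicate 1, Vcam1 had −0.40 and 0.42 (unadjusted p = 0.0228 by edgeR for the latter). Adgre1, the F4/80 antigen, had from 165 to 496, and Maf, a transcription factor of resident macrophages, from 36 to 208.

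Among the 10 tissue macrophage and C1q genes, the order of libraries was the same for all in Kdm6bΔ/+ only. There replicate 1 was the lowest and replicate 2 the highest for 10 of 10 genes, against 39.8% and 33.9% of all genes tested. Replicate 2 was also the only Kdm6bΔ/+ library without Y-linked transcripts, and the part of this in the order was not tested. In Asxl1Y588XTg, replicate 1 was the highest for 10 of 10, against 34.5%, while the lowest was replicate 2 for 5 and replicate 3 for 5. In WT, replicate 2 was the lowest for 7 of 10, against 33.4%, and replicate 1 the highest for 6, against 31.9%. In Asxl1Y588XTg Kdm6bΔ/+, replicate 1 was the lowest for 8 of 10, against 36.5%, and replicate 3 the highest for 6, against 35.6%. The median coefficient of variation of these genes was 36.4% in WT, 45.8% in Kdm6bΔ/+, 71.1% in Asxl1Y588XTg and 12.3% in Asxl1Y588XTg Kdm6bΔ/+ cells. Over all genes tested it was 16.4%, 12.2%, 10.8% and 10.3%. The summed TPM of the 3 C1q genes was 0.41 times the WT median in WT replicate 2, 0.48 times in Kdm6bΔ/+ replicate 1, 0.44 and 0.47 times in Asxl1Y588XTg replicates 2 and 3, and 3.01 times in Asxl1Y588XTg replicate 1.

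Without Asxl1Y588XTg replicate 1, the comparisons of the C1q and tissue macrophage genes changed. In Asxl1Y588XTg Kdm6bΔ/+ against Asxl1Y588XTg, 6 of the 40 genes were then called, all higher in Asxl1Y588XTg Kdm6bΔ/+, against 1.33% of all genes tested called and 0.354% called higher. At an unadjusted p-value under 0.05 there were 14, of which 13 were higher, against 13.4%. The genes called were Mrc1, Cd5l, Hmox1, C1qa, C1qb and C1qc. The log2 fold change was 1.69 for Mrc1 (SE 0.14, adjusted p = 0.000123 by edgeR), 1.82 for Cd5l (SE 0.19, adjusted p = 0.00100 by edgeR) and 1.52 for C1qc (SE 0.18, adjusted p = 0.00223 by edgeR). It was 1.05 for Hmox1, 1.46 for C1qa and 1.22 for C1qb. From all libraries it was 0.83 for Mrc1, −0.01 for Cd5l, −0.06 for C1qc, 0.49 for Hmox1, 0.12 for C1qa and −0.44 for C1qb. In Asxl1Y588XTg against WT the values were −0.38, 0.61, 0.73, −0.21, 0.28 and 0.82 from all libraries and −1.23, −1.22, −0.85, −0.77, −1.05 and −0.83 without that library, in the same order of genes. The median of the 40 genes moved from −0.06 to 0.24, with 34 fitted higher. In Asxl1Y588XTg against WT the median moved from 0.17 to −0.25, with 34 fitted lower, 0 called against 0.739% of all genes tested, and 7 with an unadjusted p-value under 0.05, all lower, against 7.07%. For the interaction, 0 of the 40 were called, against 0% of all genes tested, and 11 had an unadjusted p-value under 0.05, against 6.38%. Markers of lymphoid cells also moved when this library was left out. The median over 10 T and NK cell genes went from 0.37 to −0.43 in Asxl1Y588XTg against WT, with 2 genes lower at an unadjusted p-value under 0.05, and from −0.95 to −0.21 in Asxl1Y588XTg Kdm6bΔ/+ against Asxl1Y588XTg. For 10 B and plasma cell genes the median went from −0.54 to −1.23 in Asxl1Y588XTg against WT, with 6 genes lower at an unadjusted p-value under 0.05 against 7.07% of all genes tested. It went from 0.73 to 1.26 in Asxl1Y588XTg Kdm6bΔ/+ against Asxl1Y588XTg, with 1 gene, Cd79a of the B cell receptor, called higher (log2 fold change 1.29, adjusted p = 0.0246 by edgeR). The part of lymphoid cells in the values of the 40 genes was not tested. The library left out is the one that stood apart in these same genes, so these values are a description and not an independent test, and a group of 2 Asxl1Y588XTg libraries remained.

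**Figure D3:**
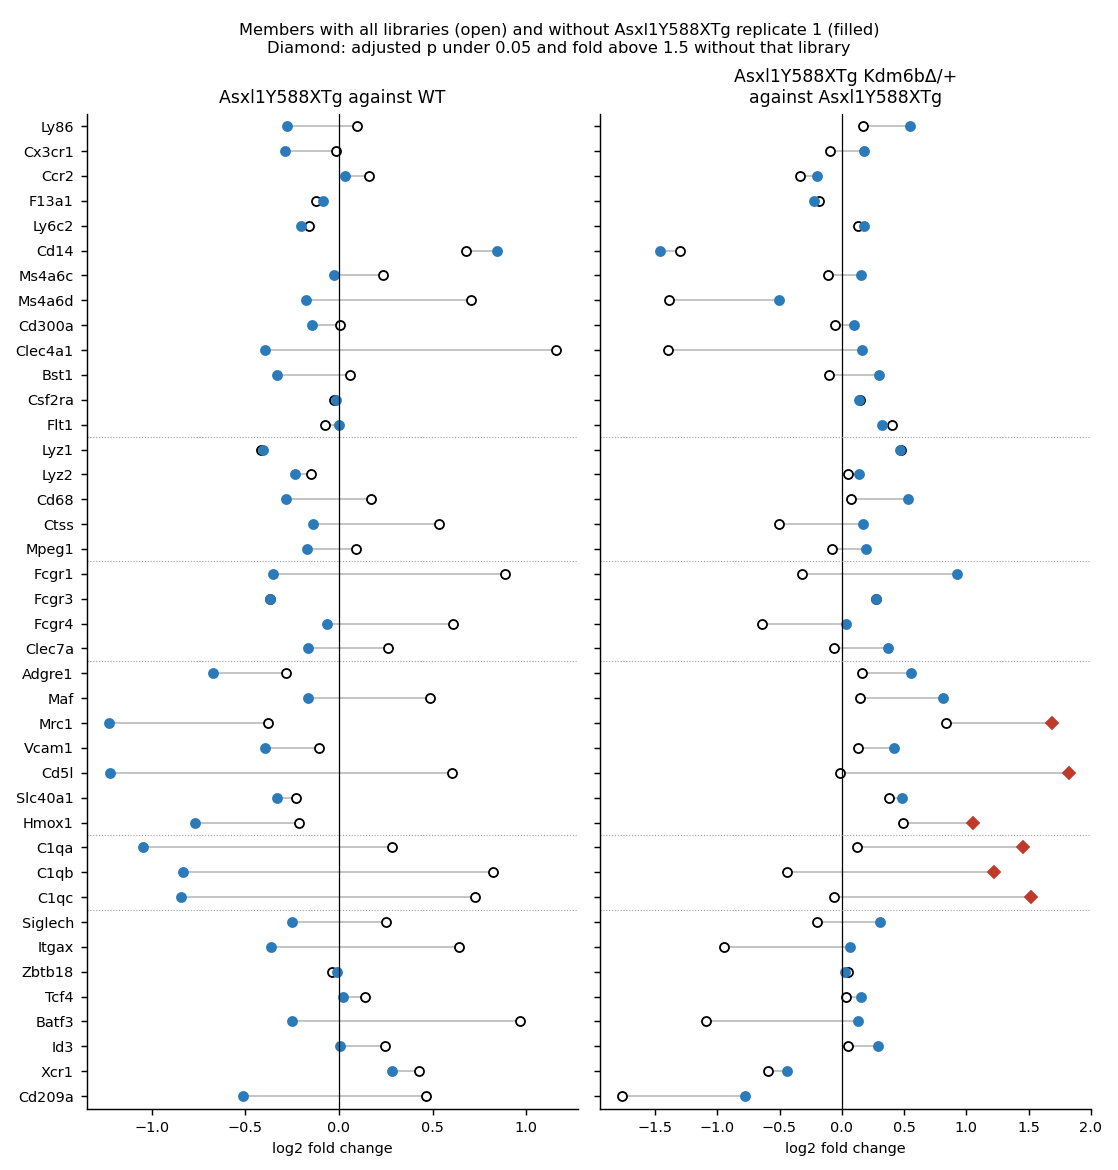
Log2 fold changes of the 40 genes in Asxl1Y588XTg against WT and in Asxl1Y588XTg Kdm6bΔ/+ against Asxl1Y588XTg, from all libraries (open) and without Asxl1Y588XTg replicate 1 (filled), with red diamonds for genes called. The 6 called genes are the C1q genes, Mrc1, Cd5l and Hmox1, each higher in Asxl1Y588XTg Kdm6bΔ/+ than in the remaining Asxl1Y588XTg libraries.

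Among the 8 dendritic cell genes, Cd209a had the largest log2 fold change in every comparison but Asxl1Y588XTg against WT, where Batf3 (0.97), Itgax (0.64) and Cd209a (0.46) came in this order. All 3 turned negative there without Asxl1Y588XTg replicate 1, to −0.25, −0.37 and −0.51. Cd209a (chromosome 8, 3743397 to 3748984), a mouse homolog of the lectin DC-SIGN found on monocyte-derived dendritic cells, had normalized counts of 22.6, 27.1 and 27.5 in WT, 0, 1.99 and 4.14 in Kdm6bΔ/+, 71.6, 21.1 and 15.2 in Asxl1Y588XTg, and 12.7, 8.07 and 10.5 in Asxl1Y588XTg Kdm6bΔ/+ cells. Both groups with the Kdm6b deletion lay below both groups without it, and Kdm6bΔ/+ cells were the lowest, with 0, 2 and 4 raw counts. This split, too, nearly coincides with Y-linked transcripts. In Kdm6bΔ/+ against WT the log2 fold change was −3.53 (SE 0.81, unadjusted p = 0.000965, adjusted p = 0.464 by edgeR), which did not pass. DESeq2 called it, with −3.61 (SE 0.93, adjusted p = 0.0409). Its other log2 fold changes were −1.76 (SE 0.60, adjusted p = 0.198 by edgeR) in Asxl1Y588XTg Kdm6bΔ/+ against Asxl1Y588XTg, −1.30 (SE 0.46, adjusted p = 0.615 by edgeR) in Asxl1Y588XTg Kdm6bΔ/+ against WT and 2.21 (SE 0.74, adjusted p = 0.286 by edgeR) in Asxl1Y588XTg Kdm6bΔ/+ against Kdm6bΔ/+. The first of these was −0.78 (SE 0.44, unadjusted p = 0.100 by edgeR) without Asxl1Y588XTg replicate 1.

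Xcr1 (chromosome 9, 123852315 to 123862029), the chemokine receptor of cross-presenting dendritic cells, had normalized counts of 40.6, 49.9 and 61.5 in WT, 39.8, 37.7 and 42.4 in Kdm6bΔ/+, 82.7, 56.2 and 68 in Asxl1Y588XTg, and 47.7, 50.5 and 39 in Asxl1Y588XTg Kdm6bΔ/+ cells. All Asxl1Y588XTg Kdm6bΔ/+ libraries lay below all Asxl1Y588XTg libraries, while WT overlapped both. Between these groups the log2 fold change was −0.59 (SE 0.24, unadjusted p = 0.0336, adjusted p = 0.273 by edgeR), and without Asxl1Y588XTg replicate 1 it was −0.44 (unadjusted p = 0.128 by edgeR).

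Tcf4, the transcription factor that specifies plasmacytoid dendritic cells, had normalized counts of 962, 1043 and 974 in WT, 1028, 898 and 1054 in Kdm6bΔ/+, 1286, 1079 and 955 in Asxl1Y588XTg, and 1123, 1044 and 1231 in Asxl1Y588XTg Kdm6bΔ/+ cells. Its Asxl1Y588XTg Kdm6bΔ/+ libraries lay just above all WT libraries, and Asxl1Y588XTg overlapped both. The log2 fold change was 0.14 (SE 0.11, adjusted p = 0.822 by edgeR) in Asxl1Y588XTg against WT and 0.03 (SE 0.11, adjusted p = 0.933 by edgeR) in Asxl1Y588XTg Kdm6bΔ/+ against Asxl1Y588XTg, or 0.02 and 0.15 without Asxl1Y588XTg replicate 1. Itgax, the CD11c integrin chain, had normalized counts of 474 in Asxl1Y588XTg replicate 1 and from 90.8 to 204 elsewhere, and its Kdm6bΔ/+ libraries lay below all WT libraries. Siglech, a lectin of plasmacytoid dendritic cells, had from 0.903 to 58.5, Batf3 from 0 to 33.3, and Id3, an inhibitor of E proteins such as that of Tcf4, from 15.9 to 60.5. Zbtb18, a transcriptional repressor, was steady, from 788 to 1063.

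**Figure D4:**
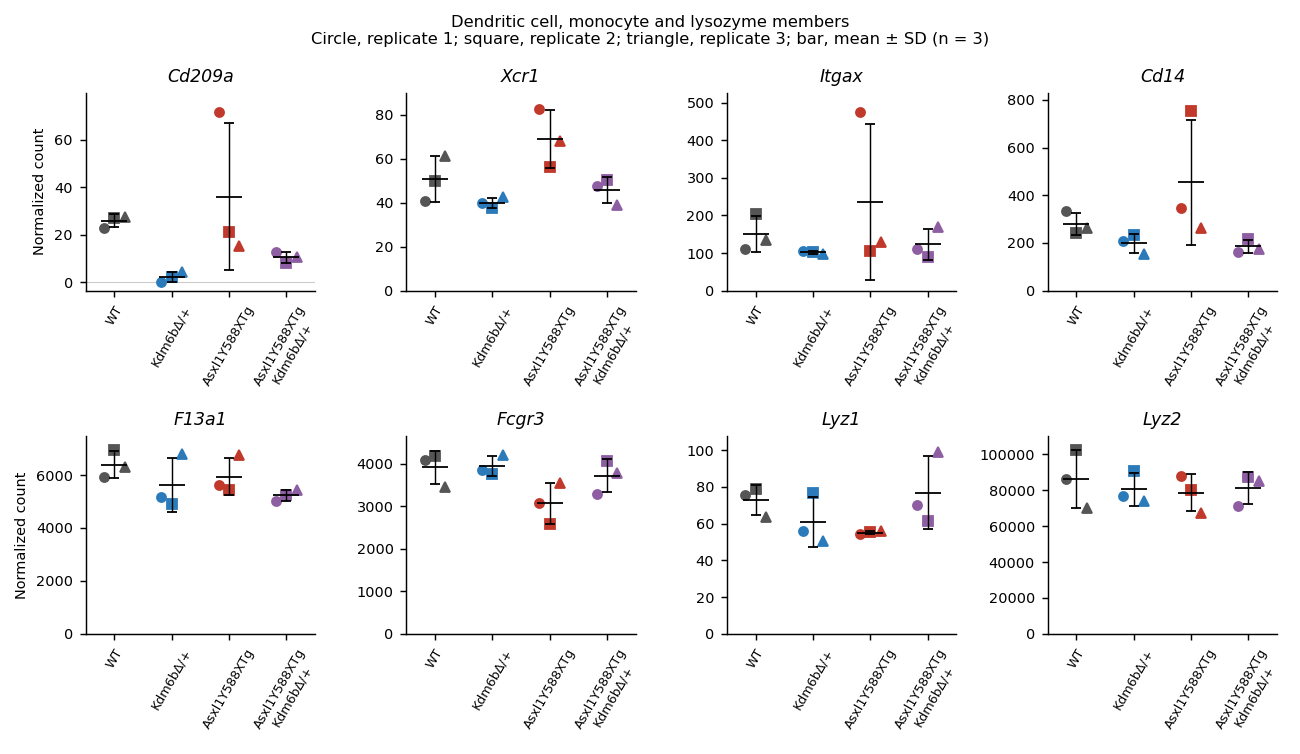
Normalized counts of 8 dendritic, monocyte, Fc receptor and lysozyme genes by library, with circles, squares and triangles for replicates 1, 2 and 3 and bars for the mean ± SD of the 3 mice of a genotype. Cd209a and Cd14 are lower in both groups with the Kdm6b deletion than in the groups without it, a split that nearly coincides with Y-linked transcripts.

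The remaining comparisons also gave 0 calls among the 40 genes by edgeR. In Kdm6bΔ/+ against WT, 4 had an unadjusted p-value under 0.05, all lower in Kdm6bΔ/+ (Cd14, Itgax, Cd209a and Adgre1), against 3.49% of all genes tested, where 0.0948% were called. DESeq2 called 1, Cd209a, against 0.246% of all genes, and gave 3 under that level, against 3.15%. In Asxl1Y588XTg Kdm6bΔ/+ against WT, 4 did so, of which Cd5l was higher and F13a1, Cd14 and Cd209a were lower, against 6.79%, where 0.215% were called. DESeq2 called 0, against 0.72%, and gave 5, against 6.27%. In Asxl1Y588XTg Kdm6bΔ/+ against Kdm6bΔ/+, 1 did so (Cd209a), against 12.2%, where 0.0948% were called. By DESeq2, 0 were called, against 0.657%, and 5 were under that level, against 9.9%. The groups did not overlap for 6 of the 40 genes in Asxl1Y588XTg Kdm6bΔ/+ against Asxl1Y588XTg, against 21.3% of all genes tested, for 3 in Kdm6bΔ/+ against WT, against 9.1%, for 7 in Asxl1Y588XTg Kdm6bΔ/+ against WT, against 13.5%, and for 3 in Asxl1Y588XTg Kdm6bΔ/+ against Kdm6bΔ/+, against 18.2%. All 7 tissue macrophage genes were fitted higher in Asxl1Y588XTg Kdm6bΔ/+ than in Kdm6bΔ/+, with a median of 0.39, as were all 3 C1q genes, with a median of 0.50. Over all genes tested, 50.3% were fitted higher, with a median of 0.00. In both of these groups 0 genes had an unadjusted p-value under 0.05, and the median SE was 0.38 and 0.29. For the interaction, the Kdm6b effect in Asxl1Y588XTg minus that in WT cells, 0 were called, against 0.0126% of all genes tested, 0 had an unadjusted p-value under 0.05, against 6.87%, and DESeq2 called 0, against 0.417%, and gave 2 under that level, against 6.93%. The interaction was −0.81 (SE 0.47, unadjusted p = 0.113 by edgeR) for Cd14 and 1.74 (SE 0.99, unadjusted p = 0.0970 by edgeR) for Cd209a. For Cd209a it was 2.72 (SE 0.91, unadjusted p = 0.00939, adjusted p = 0.630 by edgeR) without Asxl1Y588XTg replicate 1, so a difference between the backgrounds did not pass in either fit.

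Related genes outside the 40 were read from 7 further lists. Regulators of monocytes and dendritic cells (22 genes, Spi1 the most abundant) had 1 call in Asxl1Y588XTg Kdm6bΔ/+ against Asxl1Y588XTg, against 1.74% of all genes tested. It was Nr4a1, the nuclear receptor of patrolling monocytes, with normalized counts of 919.9, 783 and 1006 in Asxl1Y588XTg and 426, 244 and 328 in Asxl1Y588XTg Kdm6bΔ/+ cells. All Asxl1Y588XTg libraries lay above all Asxl1Y588XTg Kdm6bΔ/+ and all WT libraries, which had 378, 244 and 540.4. Its log2 fold change in Asxl1Y588XTg Kdm6bΔ/+ against Asxl1Y588XTg was −1.44 (SE 0.20, adjusted p = 0.0232 by edgeR), and the adjusted p was 0.0674 without Asxl1Y588XTg replicate 1, 0.0512 without Asxl1Y588XTg replicate 3 and 0.0818 without Asxl1Y588XTg Kdm6bΔ/+ replicate 3, with log2 fold changes of −1.42, −1.35 and −1.42.

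Of 20 other tissue macrophage genes (Apoe the most abundant), 18 were tested and 2 were called, 1 in Asxl1Y588XTg Kdm6bΔ/+ against Asxl1Y588XTg, against 1.74% of all genes tested, and 1 in Asxl1Y588XTg Kdm6bΔ/+ against Kdm6bΔ/+, against 0.0948%. Timd4, a receptor for dying cells on resident macrophages, had normalized counts of 0, 9.75 and 13.8 in WT, 21.1, 43.7 and 34.2 in Kdm6bΔ/+, 12.1, 9.03 and 9.13 in Asxl1Y588XTg, and 44, 29.3 and 48.5 in Asxl1Y588XTg Kdm6bΔ/+ cells. Both groups with the Kdm6b deletion thus lay above both without it, again a split that nearly coincides with Y-linked transcripts. For Timd4 the log2 fold change in Asxl1Y588XTg Kdm6bΔ/+ against Asxl1Y588XTg was 1.99 (SE 0.34, adjusted p = 0.0202 by edgeR), and the adjusted p was 0.0529 without Asxl1Y588XTg replicate 3, 0.0782 without Asxl1Y588XTg Kdm6bΔ/+ replicate 1 and 0.0709 with the replicate number as a block, with log2 fold changes of 1.93, 1.93 and 1.98. Cd163, the receptor for hemoglobin bound to haptoglobin, had 495, 473 and 384 in Asxl1Y588XTg Kdm6bΔ/+ and 174, 227 and 228 in Kdm6bΔ/+ cells, a log2 fold change of 1.08 (SE 0.14, adjusted p = 0.00800 by edgeR) that reached an adjusted p of 0.0565 without Asxl1Y588XTg Kdm6bΔ/+ replicate 1. Without Asxl1Y588XTg replicate 1, 5 genes of the list were called in Asxl1Y588XTg Kdm6bΔ/+ against Asxl1Y588XTg, against 1.33% of all genes tested. All 5 were higher, namely Axl, Cd163, Mertk, Siglec1 and Timd4, with log2 fold changes from 1.36 to 2.14. The library left out was the highest of all 12 for 8 of the 18 genes tested. These calls are therefore a description and not an independent test. Folr2 had no count in 10 of the 12 libraries. No gene was called in the lists of other monocyte genes (20 genes), other dendritic cell genes (17 tested), phagocyte signalling and oxidase genes (20), complement (10 tested) and cathepsins and lysosomal genes (18). For Asxl1Y588XTg Kdm6bΔ/+ against Asxl1Y588XTg these lists had 4, 5, 1, 0 and 1 genes with an unadjusted p-value under 0.05, against 15.4% of all genes tested. Without Asxl1Y588XTg replicate 1 the counts were 4, 6, 8, 1 and 4, against 13.4%, and Lgmn of the lysosomal genes (log2 fold change 0.89) was called higher in Asxl1Y588XTg Kdm6bΔ/+. These, too, are descriptions and not independent tests.

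Markers of other cells were read beside Asxl1Y588XTg replicate 1. Of 12 interferon response genes, 11 were highest of all libraries there. Ifit2, the most abundant, was instead the lowest there, with a normalized count of 589 against 599.8 to 823 elsewhere. The summed TPM of the list was 1.83 times the WT median, against 0.92 and 1.13 times in the other Asxl1Y588XTg libraries and 0.71, 0.87 and 0.79 times in Asxl1Y588XTg Kdm6bΔ/+. Of 10 T and NK cell genes, 6 were highest there, with a summed TPM 1.09 times the WT median, or 2.24 times without Nkg7, the most abundant, against 0.51 and 0.61 times in the other Asxl1Y588XTg libraries, 0.47, 1.37 and 1 times in WT, from 0.48 to 0.61 times in Kdm6bΔ/+, and from 0.52 to 0.59 times in Asxl1Y588XTg Kdm6bΔ/+ cells. Cd3e and Cd8a were at 0 in WT replicate 1, and Gzma was at 0 in Asxl1Y588XTg replicate 2. The summed TPM of the neutrophil list was 1.12 times the WT median in that library, that of the B and plasma cell list 0.66 times and that of the erythroid list 0.79 times. The megakaryocyte and platelet list (Pf4 the most abundant) had 1.82 times the WT median there and 4.07 and 1.58 times in the other Asxl1Y588XTg libraries. The endothelial and stromal list (Pecam1 the most abundant) had 1.41 times, against 1.16 and 1.53 times, and the mast cell and basophil list (Hdc the most abundant) 1.27 times, against 0.92 and 1.14 times. The part of interferon response or of other cells in the values of the 40 genes was not tested. Of the 40 genes, 10 had a mean count of 1000 or more after normalization. In that library 0 of these exceeded the other Asxl1Y588XTg libraries by over 2-fold, with a median of 1.21-fold, whereas 18 of the 30 genes below that level did so, with a median of 2.34-fold.

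**Figure D5:**
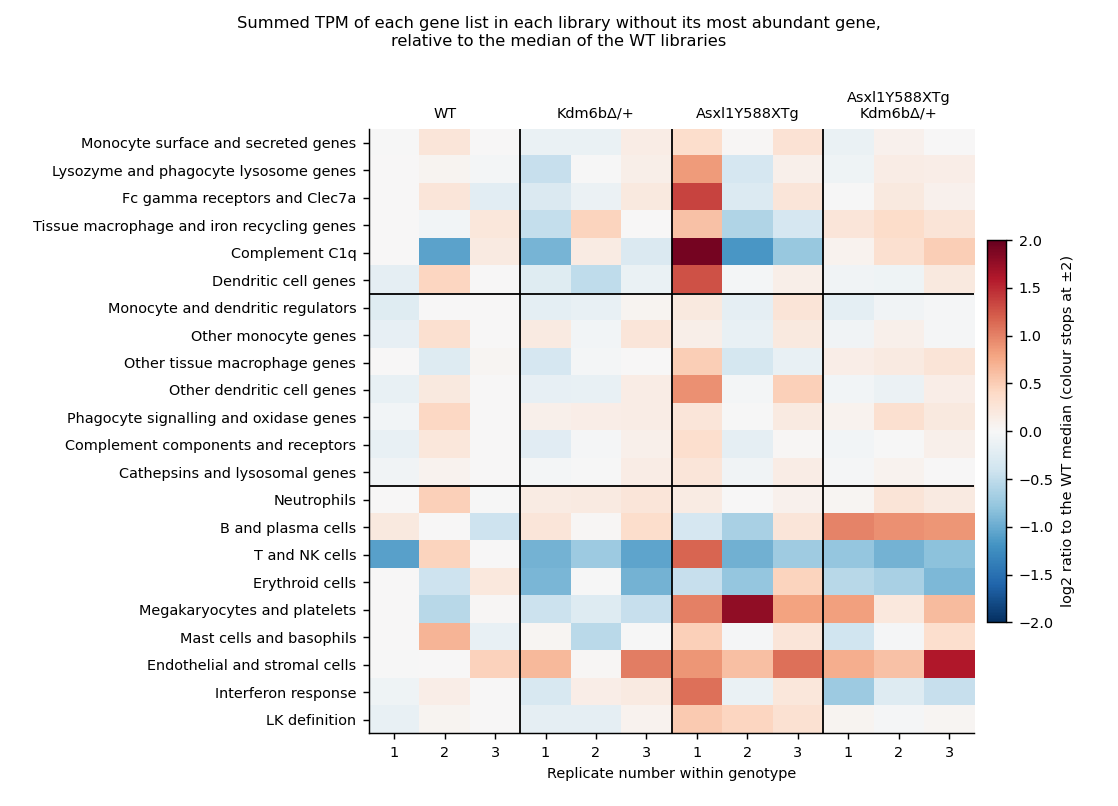
Log2 ratio of the summed TPM of each gene list, without its most abundant gene, to the WT median, for 12 libraries. In Asxl1Y588XTg replicate 1 the lists of all 6 role groups of the 40 genes are the highest of all libraries, as are those of other tissue macrophage, other dendritic cell, complement, cathepsin, interferon, T and NK cell and LK genes.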

How the data were processed

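RNA of LK cells from 12 mice was sequenced as 50-base single reads. Per the labels and methods, the authors used Trimmomatic, STAR with the mm10 genome and HTSeq, and the deposited values are raw counts of 55291 genes. The methods and the sample labels name different library kits and sequencers, and the annotation and strand used in counting are not given in the sources used here, so reads of overlapping genes are uncertain. Columns were matched to genotypes by the sample titles.

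Software was DESeq2 1.42.0, edgeR 4.0.16 and limma 3.58.1 under R 4.3.3. After filterByExpr, 15825 genes remained, and 22587 had no count. Each comparison used TMM scaling and edgeR's robust quasi-likelihood test on the 6 libraries compared, and the interaction was fitted to all 12. Adjustment was by Benjamini-Hochberg over the 15825 genes. Normalized counts are counts over the effective library size times the mean library size. TPM used the length of all annotated exons of a gene together in GENCODE vM21, which also gave the positions. SE values derive from the F statistic.

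The members, lists and tests were chosen with earlier results of these data known. Genes described in full were, in each role group, the most abundant by count and up to 2 per comparison with separated groups and the largest change in Asxl1Y588XTg against WT and Asxl1Y588XTg Kdm6bΔ/+ against Asxl1Y588XTg. The separated genes were thus selected in part for these values. Cd5l, Mrc1 and Hmox1 were added after their values were seen. Of the further lists, called genes were named. Alternatives were DESeq2, RLE scaling, no expression filter, a mean count of at least 50, a replicate block and leaving out each library. A term for Y-linked transcripts was also fitted. The further lists without Asxl1Y588XTg replicate 1 and the alternatives for Nr4a1, Timd4 and Cd163 were added after the data were seen. Replicate numbers did not pair the libraries, with a median Pearson r of deviations of −0.04 over 18 pairs of equal number. Chi-square values per gene between replicates were from 7.40 to 30.8, where counting noise gives 1. The steps were tested on simulated data.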

Additional observations from a re-analysis of the deposited data

How the results depend on the processing

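The count of 0 called genes among the 40 held in Asxl1Y588XTg against WT and in Asxl1Y588XTg Kdm6bΔ/+ against WT under each alternative run. Without an expression filter, 2 genes (Ms4a6d and Cd209a) were called in Asxl1Y588XTg Kdm6bΔ/+ against Asxl1Y588XTg, against 2.47% of 32704 genes, 1 (Cd209a) in Kdm6bΔ/+ against WT, against 0.159%, and 1 (Mrc1) for the interaction, against 0.789%. DESeq2 also called 1 (Cd209a) in Kdm6bΔ/+ against WT. With single libraries left out, the count ranged from 0 to 6 in Asxl1Y588XTg Kdm6bΔ/+ against Asxl1Y588XTg, the 6 without Asxl1Y588XTg replicate 1, and from 0 to 1 in Asxl1Y588XTg Kdm6bΔ/+ against Kdm6bΔ/+, where Cd5l was called without Kdm6bΔ/+ replicate 2, against 0.215% of all genes. The cause of these changes was not tested.

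Leaving out single libraries gave the 40 genes median log2 fold changes from −0.25 to 0.29 in Asxl1Y588XTg against WT, from −0.22 to 0.24 in Asxl1Y588XTg Kdm6bΔ/+ against Asxl1Y588XTg, from −0.15 to 0.02 in Kdm6bΔ/+ against WT, from −0.02 to 0.13 in Asxl1Y588XTg Kdm6bΔ/+ against WT, from 0.07 to 0.19 in Asxl1Y588XTg Kdm6bΔ/+ against Kdm6bΔ/+ and from −0.11 to 0.35 for the interaction. The sign of the median in Asxl1Y588XTg Kdm6bΔ/+ against Asxl1Y588XTg also turned with a mean count of at least 50 (0.01). With a term for Y-linked transcripts in a fit of all 4 genotypes, the median was 0.14 in Asxl1Y588XTg Kdm6bΔ/+ against Asxl1Y588XTg, 0.10 in Kdm6bΔ/+ against WT and 0.31 in Asxl1Y588XTg Kdm6bΔ/+ against WT, against −0.07, −0.07 and 0.01 in the same fit without the term, so the first 2 turned sign. For Asxl1Y588XTg Kdm6bΔ/+ against WT the term is estimated from the other groups alone, since genotype and Y-linked transcripts coincide there. With the replicate number as a block, 0 of the 40 genes were called in each of the 6 comparisons, and the medians were 0.07 in Asxl1Y588XTg against WT, 0.04 in Asxl1Y588XTg Kdm6bΔ/+ against Asxl1Y588XTg, −0.05 in Kdm6bΔ/+ against WT, 0.04 in Asxl1Y588XTg Kdm6bΔ/+ against WT, 0.12 in Asxl1Y588XTg Kdm6bΔ/+ against Kdm6bΔ/+ and 0.04 for the interaction. Genes under about 100 normalized counts, such as Cd209a, Fcgr1, Siglech and Batf3, rest on few reads.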

Other observations

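Outside the monocyte and macrophage genes, other lists of cell type markers also had called genes, of which those named here are a part. Hba-a2, an α-globin gene, had a log2 fold change of −1.44 (SE 0.21, adjusted p = 0.0202 by edgeR) in Kdm6bΔ/+ against WT and −2.20 (SE 0.18, adjusted p = 0.000336 by edgeR) in Asxl1Y588XTg Kdm6bΔ/+ against WT. Jchain, the joining chain of secreted antibodies, was higher in both, by 0.79 (SE 0.11, adjusted p = 0.0202 by edgeR) and by 1.63 (SE 0.13, adjusted p = 0.000336 by edgeR) on the log2 scale. The B and plasma cell list that holds Jchain did not move with it. In Kdm6bΔ/+ against WT, 2 of its 10 genes were fitted higher and 8 lower (median −0.33). In Asxl1Y588XTg Kdm6bΔ/+ against WT, 5 were higher and 5 lower (median 0.00). Tek, the angiopoietin receptor, was higher in Asxl1Y588XTg than in WT cells, by 1.81 (SE 0.26, adjusted p = 0.00835 by edgeR), and lower in Asxl1Y588XTg Kdm6bΔ/+ than in Asxl1Y588XTg cells, at −1.39 (SE 0.20, adjusted p = 0.00861 by edgeR). Of the 10 endothelial and stromal genes, which include Tek, 9 were fitted higher and 1 lower in the former comparison (median 0.95). In the latter, 6 were higher and 4 lower (median 0.19), so most of that list did not follow Tek. In Asxl1Y588XTg Kdm6bΔ/+ against WT, the erythroid genes Alas2 (−1.49) and Hbb-bt (−1.11) were also called lower and the platelet chemokine gene Ppbp (2.49) higher. Jchain (0.83) and the platelet integrin gene Itga2b (0.68) were called higher in Asxl1Y588XTg Kdm6bΔ/+ than in Kdm6bΔ/+ cells.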
